A study of Mus musculus with 6 samples.

Results

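The 4 genes of epithelial identity Krt18, Elf3, Epcam and Dsg2 were followed in U14 cells, a mouse cervical carcinoma line, with and without overexpression of the forkhead transcription factor FOXP1. They were picked by name from the authors' deposited table of changed genes, in which all 4 were found among 1722 genes, and their directions were known when they were picked. Of these, Krt18 (Entrez 16668) and Elf3 (Entrez 13710) are listed as lower in the overexpression libraries, and Epcam (Entrez 17075) and Dsg2 (Entrez 13511) as higher. Poly(A)-selected mRNA was sequenced in 3 libraries of wild-type U14 cells (labelled WT) and 3 of U14 cells of genotype OEFOXP1. The overexpression libraries carry the numbers 2, 3 and 4 in the table. Number 4 matches no sample title, so that library is placed by its group name alone. The labels give cervical as the tissue of both groups and name neither a vector, nor an empty-vector control, nor whether the libraries came from separate cultures or clones. P-values therefore measure only the spread between these libraries, which may be technical.

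Epithelial cells are held together by several systems that these genes sample. Keratin filaments run through the cytoplasm and anchor at desmosomes, whose extracellular part is built from desmosomal cadherins. The adhesion molecule EpCAM sits on the lateral membrane near tight junctions, and ETS factors such as ELF3 take part in the epithelial differentiation programme. Carcinomas often keep parts of this equipment and lose others.

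The windows from 250 bases before to 50 bases after the gene start were read for Krt18, Elf3 and Epcam from RefSeq, build GRCm38.p6, because the overexpressed protein is a DNA-binding factor and these promoters belong to genes that were listed in opposite directions. The window of Dsg2, the other rising gene, is not reported here. Capitals mark TGTTTA, a short form of the forkhead motif, or its reverse complement.
Krt18, chr15:102027966-102028265, plus strand: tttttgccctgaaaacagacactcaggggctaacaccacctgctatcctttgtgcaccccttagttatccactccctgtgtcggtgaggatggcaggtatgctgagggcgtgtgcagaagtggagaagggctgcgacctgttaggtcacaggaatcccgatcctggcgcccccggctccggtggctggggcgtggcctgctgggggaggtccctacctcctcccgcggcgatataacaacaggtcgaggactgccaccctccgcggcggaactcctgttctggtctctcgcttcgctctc
Elf3, chr1:135258423-135258722, minus strand: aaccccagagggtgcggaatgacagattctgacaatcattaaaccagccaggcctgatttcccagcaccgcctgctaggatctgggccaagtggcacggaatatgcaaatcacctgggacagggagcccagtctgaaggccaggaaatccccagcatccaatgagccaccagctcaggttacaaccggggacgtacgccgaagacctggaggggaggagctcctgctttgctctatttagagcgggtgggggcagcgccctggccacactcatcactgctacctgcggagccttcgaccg
Epcam, chr17:87635729-87636028, plus strand: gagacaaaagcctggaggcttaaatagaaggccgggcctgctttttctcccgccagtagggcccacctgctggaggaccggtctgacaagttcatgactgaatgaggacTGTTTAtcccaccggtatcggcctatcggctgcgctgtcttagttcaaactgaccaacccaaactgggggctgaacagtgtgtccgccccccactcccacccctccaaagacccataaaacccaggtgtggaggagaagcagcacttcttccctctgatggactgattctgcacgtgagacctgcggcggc

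None of the 3 windows held the forkhead motif TGTTTAC, its variant TGTTTGC or the ETS motif CCGGAA on either strand. The shorter ETS core GGAA within CCGGAA was not counted, and it can be read in the Krt18 and Elf3 windows. Of 32851 windows of this length in the RefSeq table, 3.65% held TGTTTAC, 5.07% held TGTTTGC and 14.9% held CCGGAA. The shorter TGTTTA, which lies within TGTTTAC and was added after the windows had been read, occurred 1 time in the Epcam window, 141 bases before the gene start, and in 13.4% of all windows. These matches describe letters only, and binding was not measured.

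The keratin and the transcription factor stood lower in every overexpression library. Krt18 encodes the type I keratin of simple epithelia, which pairs with keratin 8. It read 394, 322 and 339 FPKM (fragments scaled by gene length and library total) in wild-type libraries 1, 2 and 3, whereas overexpression libraries 2, 3 and 4 gave 131, 172 and 162 FPKM. The groups did not overlap, and the lowest wild-type library lay 1.87 times above the highest overexpression library. The mean fell from 351 ± 37.4 to 155 ± 21.3 FPKM (mean ± SD, 3 libraries per group), with a log2 fold of -1.24 and a q-value of 1.40e-13 in the authors' deposited table. Between 3090 and 10279 fragments lay behind each of these values, so counting error was small beside the spread between libraries.

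Elf3, an ETS-family transcription factor of epithelial cells, was far less abundant. Wild-type libraries 1, 2 and 3 held 3.16, 2.87 and 2.20 FPKM of it, whereas overexpression libraries 2, 3 and 4 held 0.921, 1.10 and 1.24 FPKM. No overexpression library reached the lowest wild-type one. The mean fell from 2.74 ± 0.496 to 1.09 ± 0.160 FPKM (mean ± SD, 3 libraries per group), with a log2 fold of -1.40 and a q-value of 2.23e-04 in the authors' deposited table. These levels rested on 79 to 118 fragments per wild-type library and 31 to 45 per overexpression library.

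The adhesion genes moved the other way. Epcam encodes the epithelial cell adhesion molecule, a marker of simple epithelia that in mouse is also known from Langerhans cells of the skin. Wild-type libraries 1, 2 and 3 gave 1.33, 1.20 and 1.24 FPKM, whereas overexpression libraries 2, 3 and 4 gave 8.97, 3.30 and 5.74 FPKM. The wild-type libraries were nearly level, whereas the highest overexpression library stood 2.71 times above the lowest. The mean rose from 1.25 ± 0.0665 to 6.01 ± 2.84 FPKM (mean ± SD, 3 libraries per group), with a log2 fold of 2.20 and a q-value of 9.88e-07 in the authors' deposited table. Fragments numbered 46 to 51 per wild-type library and 139 to 311 per overexpression library.

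Dsg2 encodes desmoglein 2, the desmosomal cadherin of simple epithelia and of heart muscle. Wild-type libraries 1, 2 and 3 gave 0.0929, 0.297 and 0.183 FPKM, whereas overexpression libraries 2, 3 and 4 gave 0.824, 0.891 and 0.586 FPKM. Here the wild-type libraries differed 3.20-fold among themselves and the overexpression libraries 1.52-fold, and the groups did not overlap. The mean rose from 0.191 ± 0.102 to 0.767 ± 0.160 FPKM (mean ± SD, 3 libraries per group), with a log2 fold of 1.95 and a q-value of 7.92e-04 in the authors' deposited table. This was the thinnest measurement of the 4 genes, with 10, 32 and 19 fragments in the wild-type libraries and 80, 105 and 60 in the overexpression libraries.

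**Figure D1:**
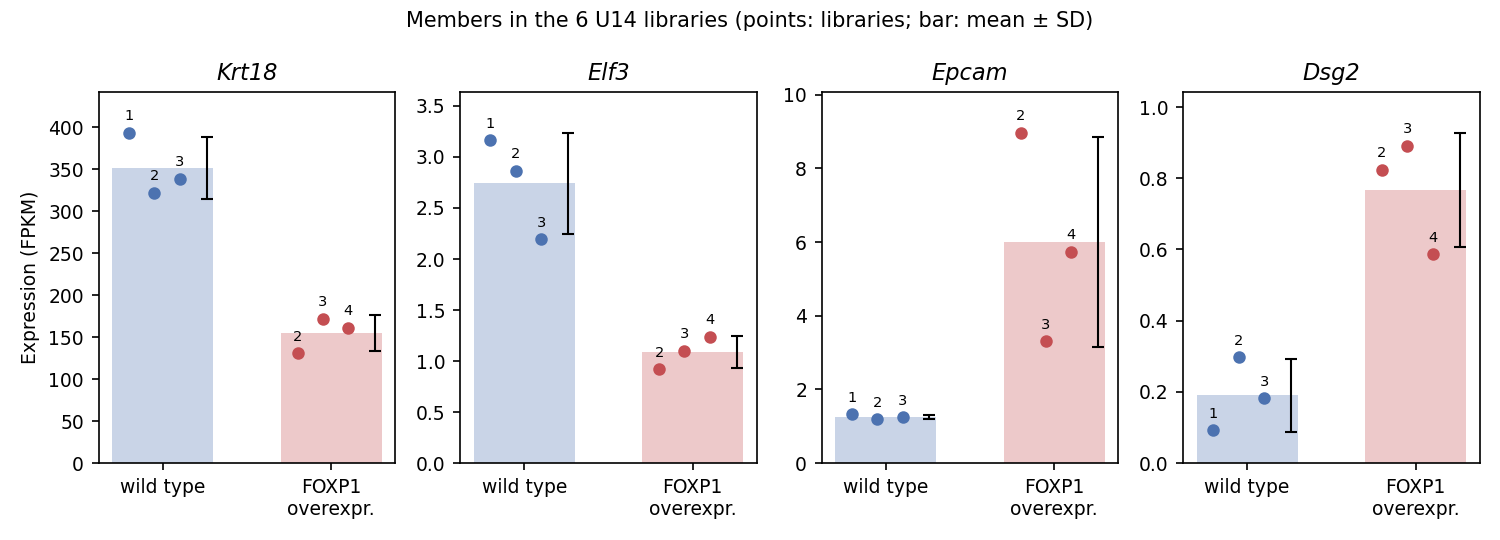
Expression in FPKM (vertical axis, from 0) of Krt18, Elf3, Epcam and Dsg2 in the 3 wild-type and 3 FOXP1-overexpression libraries, one panel per gene with its own scale; points are libraries with their numbers, bars the group means and whiskers the SD. Krt18 lies at 322 to 394 FPKM in wild type and 131 to 172 in overexpression, and Epcam spreads from 3.30 to 8.97 among the overexpression libraries.

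The authors' table lists 11.0% of the 15689 genes tested, with 9.59% higher and 1.38% lower. All 4 genes are called there, a count fixed by how they were picked. Likewise the groups did not overlap in any of the 4, as in 93.0% of the genes of the table. By wild-type FPKM, Krt18 ranked 3 and Elf3 151 of the 217 genes listed as lower. Among the 1505 genes listed as higher, Epcam ranked 703 and Dsg2 1242 by wild-type FPKM. By size of the authors' log2 fold, Krt18 ranked 92 and Elf3 55 among the lower genes, where the median was -1.20. Epcam ranked 218 and Dsg2 308 among the higher ones, where the median was 1.46.

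**Figure D2:**
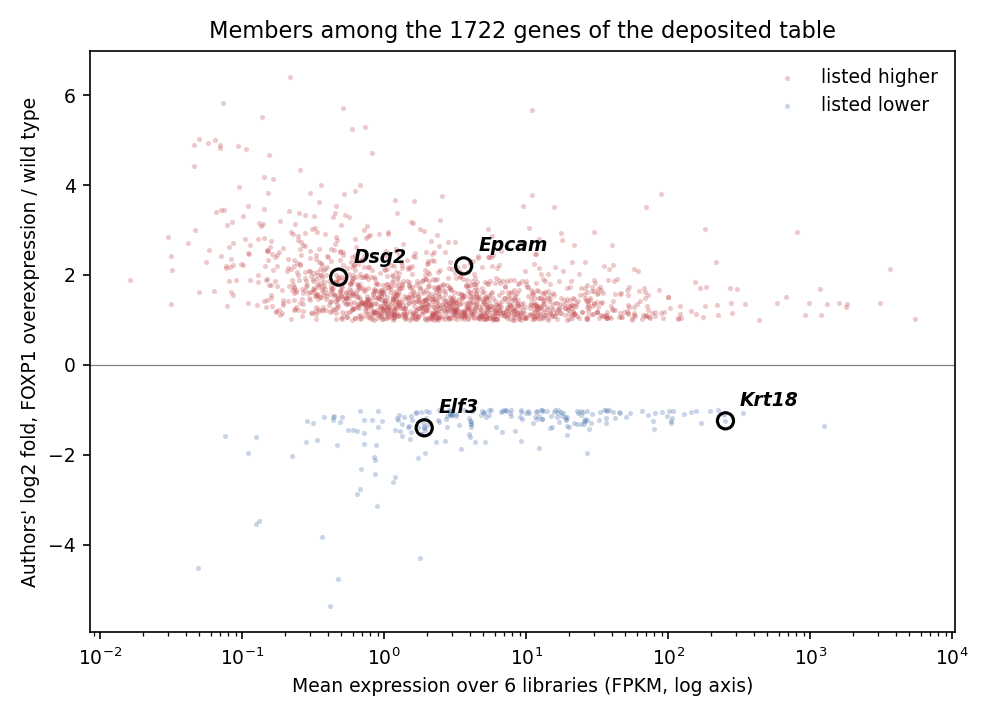
Authors' log2 fold (vertical axis, overexpression over wild type) against mean FPKM over the 6 libraries (horizontal log axis) for the 1722 genes of the deposited table, with the 4 genes circled. Krt18, at a log2 fold of -1.24, sits among the most abundant falling genes, and Dsg2, at 1.95, at a low level among the rising ones.

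Limma's voom on read counts rebuilt from the table gave sizes close to the authors' ones. The log2 fold in voom was -1.25 (SE 0.197) for Krt18, -1.37 (SE 0.299) for Elf3, 2.06 (SE 0.400) for Epcam and 2.04 (SE 0.460) for Dsg2. Benjamini-Hochberg adjusted p-values over the 1722 listed genes were 0.00291, 0.00391, 0.00318 and 0.00421 in voom, where 94.1% of the listed genes passed a p of 0.05 and a fold of 2. Over all 15689 genes, with unlisted genes counted as unchanged, the 4 adjusted p-values in voom were 0.0265, 0.0356, 0.0290 and 0.0384, against 5.80% of genes passing. The listed genes had been selected on these same libraries, so the p-values and refits in voom are no independent check. Voom called all 4 genes whichever single library was left out. The share of listed genes called was then 68.8%, 81.8% and 87.6% without wild-type library 1, 2 or 3, and 84.8%, 92.0% and 83.7% without overexpression library 2, 3 or 4. For limma on log2(FPKM + 1) these shares were 29.8%, 39.8%, 45.6%, 37.9%, 44.6% and 35.9% in the same order. On the log2(FPKM + 1) scale, which compresses low values, limma gave -0.84 for Elf3 and 0.57 for Dsg2, both under the fold threshold although their adjusted p-values were 0.00424 and 0.00346 in limma. Of the 4 genes 2 were called there, against 40.6% of the listed genes. The share of listed genes called by limma was 87.7% with a pseudocount of 0.1, 39.5% without a trend in the variance, 52.6% with a filter of 1 FPKM, 13.9% after median centring and 23.9% with a replicate block. After centring each library on its median listed gene, in a table where 87.4% of genes are listed as higher, a step that shifted log2 folds by 0.81, the sign of Dsg2 turned (-0.24) and Epcam, at 0.75, was no longer called, whereas Krt18 and Elf3 stood at -1.99 and -1.64. The shift lowers every gene alike, so no falling gene can turn under it, and on the log2(FPKM + 1) scale genes far below 1 FPKM in both groups cannot stay above 0 whatever their fold.

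**Figure D3:**
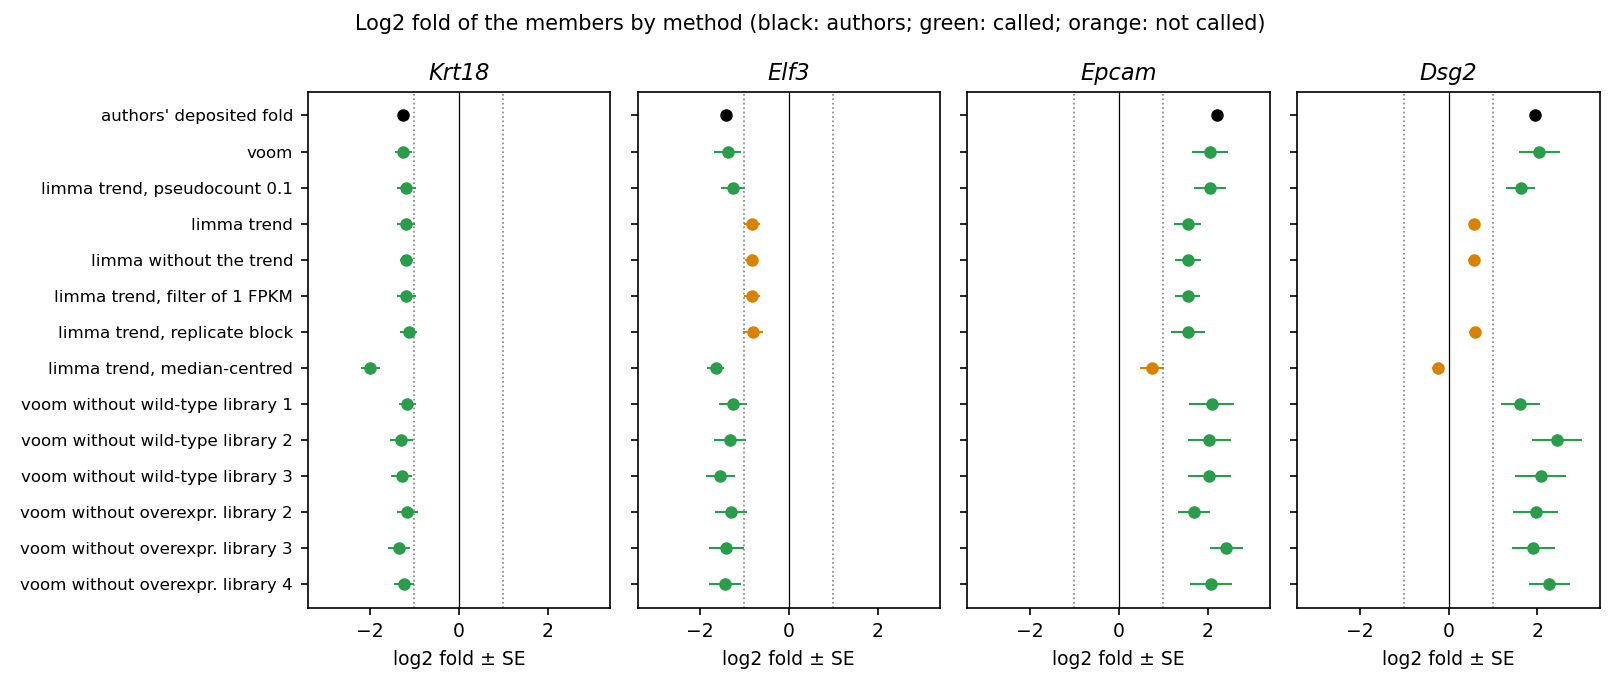
Log2 fold of the 4 genes (horizontal axis, overexpression over wild type, whiskers 1 SE, none for the authors' value) under each method in rows, with dotted lines at the 2-fold threshold. Krt18 stays beyond the threshold in every row shown, whereas Elf3 and Dsg2 fall inside it in limma on log2(FPKM + 1) before centring. After median centring Elf3 is at -1.64, beyond the line, and Dsg2 at -0.24.

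Set against each other within a library, the falling and the rising genes separated the groups widely. The ratio of Krt18 to Epcam FPKM was 297, 270 and 273 for wild-type libraries 1, 2 and 3, whereas overexpression libraries 2, 3 and 4 gave 14.6, 52.1 and 28.1. Elf3 over Epcam was 1.77 to 2.40 for wild type against 0.103 to 0.334 for overexpression, so that the more abundant of the pair was Elf3 in each wild-type library and Epcam in each overexpression library. Within each pair of like direction the ratios overlapped between the groups. Krt18 over Elf3 ranged from 112 to 154 for wild type and from 130 to 156 for overexpression, and Epcam over Dsg2 from 4.03 to 14.3 and from 3.71 to 10.9. These ratios were given no test, since the directions had been known. In bulk RNA, a change in the share of cells that carry a transcript and a change in its level per cell cannot be told apart.

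The 8 gene lists around these genes held 141 genes, of which 23 are in the authors' table, 15 as higher and 8 as lower. Over all genes the authors tested 11.0% are listed, and 87.4% of the listed genes are higher, and the counts of each list below stand beside these shares. Among 18 keratins, Krt18 was listed as lower and the other 17 were not listed, its partner Krt8 included. Searching the table for every keratin symbol, a search made after its values had been seen, gave 2 more, the hair follicle keratins Krt26 and Krt27. Both are listed as lower, as are 2 keratin-associated proteins of hair, Krtap1-5 and Krtap4-16. Krt26, Krtap1-5 and Krtap4-16 were called in voom but rested on few fragments, most of all from wild-type library 1. By library number, wild-type fragments were 18, 7 and 8 for Krt26 and 35, 11 and 7 for Krtap1-5. For Krtap4-16 they were 27, 15 and 1, and its groups overlapped. No overexpression library held more than 2 fragments of any of these genes. Krt27 stood at 2.60, 0.514 and 0.284 FPKM in the wild-type libraries and at 0.152, 0.157 and 0.180 FPKM in the overexpression ones, and was not called in voom (adjusted p 0.064). Fam83h, whose protein organises keratin filaments, was also chosen after its values were seen and fell from 8.97 ± 0.958 to 4.64 ± 1.26 FPKM (SD, n = 3), with an authors' log2 fold of -1.03 in the deposited table.

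Most of the desmosome and junction genes that are listed are listed as higher, as are 87.4% of all listed genes. Of 18 desmosome genes, 2 rose, none fell and 16 were not listed. Beside Dsg2 this was Ppl, the plakin periplakin, at 0.120, 0.154 and 0.168 FPKM in wild-type libraries and 0.369, 1.04 and 0.341 FPKM in overexpression libraries 2, 3 and 4. Both desmosome genes lay below 0 after median centring. Without wild-type library 1, voom called 1 of the 2. Of 28 adherens and tight junction genes, 4 rose, 1 fell and 23, the epithelial cadherin gene Cdh1 among them, were not listed. The rises were Epcam, the adhesion gene Nectin1 (0.736 ± 0.134 to 1.58 ± 0.217 FPKM), the tight junction gene Marveld2 (0.300 ± 0.140 to 0.990 ± 0.203 FPKM) and the tight junction scaffold gene Tjp3 (0.467 ± 0.171 to 1.58 ± 0.185 FPKM). Nectin1 and Marveld2 changed sign on median centring. Without wild-type library 1, voom called 3 of the 5.

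Genes of attachment to the basement membrane that are listed fell, as did Krt18. Of 10 hemidesmosome and laminin-332 genes, 3 fell, none rose and 7 were not listed. Those that fell included the laminin receptor subunits Itga3 (35.8 ± 1.98 to 15.9 ± 2.76 FPKM) and Itga6 (71.4 ± 5.32 to 35.5 ± 6.40 FPKM), with authors' log2 folds of -1.24 and -1.08 in the deposited table. Voom called 2 of the 3 without overexpression library 3. Among classical and other cadherins, which form the superfamily of Dsg2, 6 were listed as higher and 3 as lower, in a search made after the values had been seen. The falls included the intestinal-type cadherin Cdh17, from 4.73 ± 0.653 to 1.96 ± 0.402 FPKM, and the giant cadherin Fat2, from 1.98 ± 0.218 to 0.701 ± 0.282 FPKM (SD, n = 3).

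Relatives of Elf3 are listed in both directions. Of 18 epithelial transcription factors, 3 are listed as higher, 1 as lower and 14 not at all, and of 26 ETS-family genes 4 are listed as higher, 2 as lower and 20 not at all. The share of higher genes among all that are listed is 87.4%. The epithelial ETS genes Elf5 and Ehf and the pioneer factor gene Foxa1 are listed as higher, each with its highest value in overexpression library 3. Ehf read 0.0893, 0.936 and 0.193 FPKM in overexpression libraries 2, 3 and 4, against 0.0690 to 0.0919 FPKM in wild type, and Elf5 read 0, 1.24 and 0.217 FPKM. None of these 3 genes was called in voom, all 3 overlapped between the groups and all 3 changed sign on median centring. Voom called 1 of the 4 listed epithelial factors, Elf3, on all 6 libraries, and 4 without overexpression library 2. Outside the epithelial ETS genes, the lymphocyte factor gene Spib rose from 1.75 ± 0.895 to 6.59 ± 2.40 FPKM and the blood cell factor gene Fli1 from 4.26 ± 0.995 to 10.3 ± 2.32 FPKM, while Etv4, a factor downstream of growth factor signalling, fell from 21.9 ± 1.67 to 11.5 ± 2.09 FPKM. Of the 6 ETS genes voom called 4 with every library in the fit, and 3 when wild-type library 1 or 2 was dropped.

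Surface and secretory genes of epithelia split as well. Of 14 such genes, 3 rose, 1 fell and 10 were not listed. St14, which encodes the membrane protease matriptase, rose from 1.19 ± 0.308 to 5.14 ± 2.06 FPKM, and Spint2, an inhibitor of such proteases, from 3.61 ± 0.595 to 15.9 ± 4.96 FPKM. Cdcp1, a transmembrane gene, is listed as higher at 0.0498 ± 0.0294 and 0.239 ± 0.153 FPKM, with groups that overlapped and a value below 0 after median centring. Wfdc2, which encodes the secreted protein HE4, fell from 146 ± 31.4 to 66.6 ± 24.5 FPKM. Without overexpression library 4, voom called 2 of the 4. Of 13 genes of mesenchymal transition, Cdh11 alone is listed, as higher. Its groups overlapped, and it was not called in voom once wild-type library 3 or either of overexpression libraries 2 and 4 had been dropped. The transition factors Snai1, Snai2, Twist1, Twist2, Zeb1 and Zeb2 were not listed as changed.

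**Figure D4:**
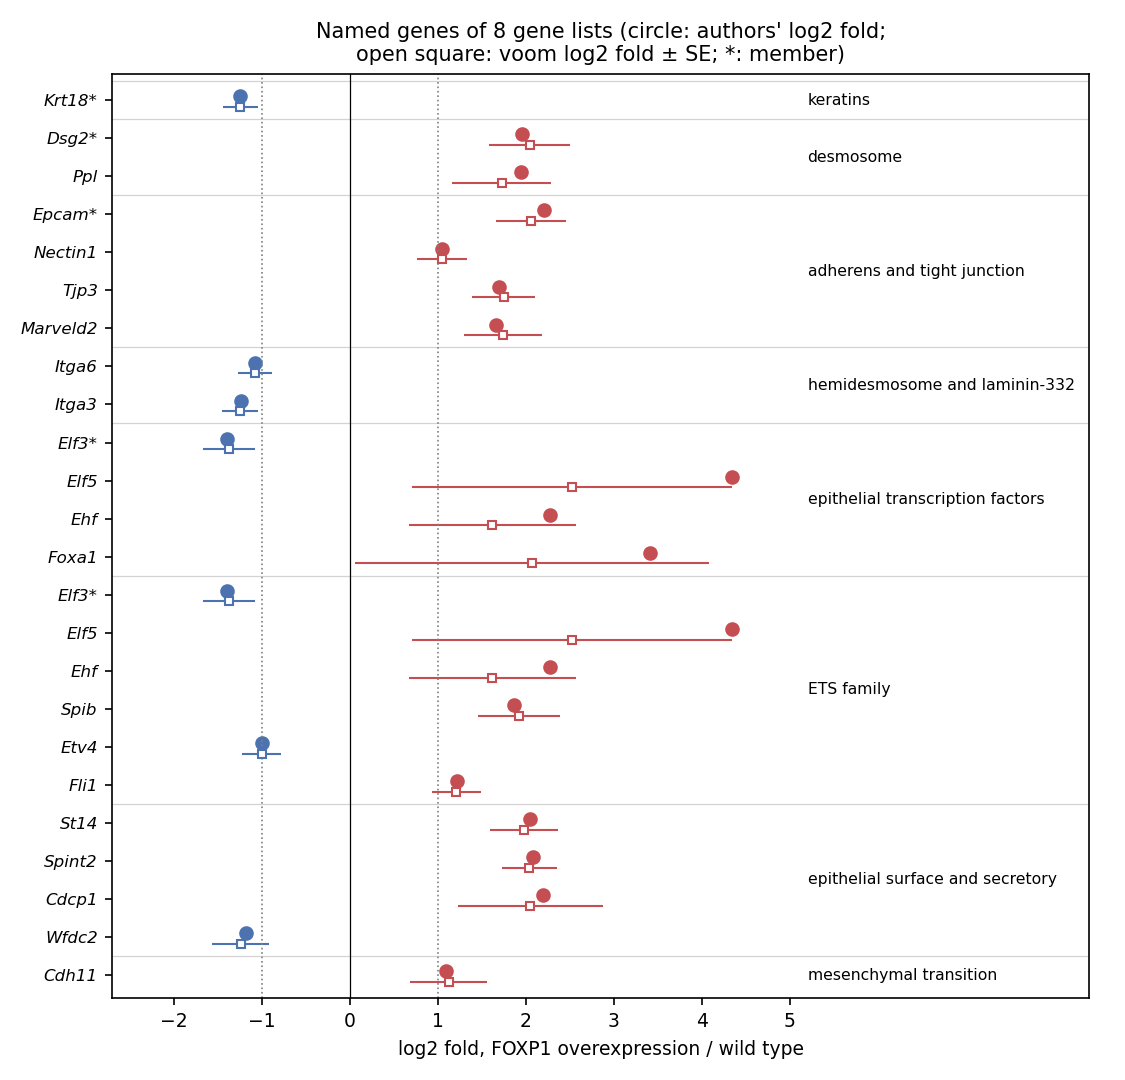
Log2 fold (horizontal axis, overexpression over wild type) of the genes named from the 8 lists, grouped by list; circles are the authors' values, open squares the voom values with 1 SE, and asterisks mark the 4 genes. Itga3 and Itga6 lie at -1.24 and -1.08, and the wide whiskers of Elf5, Ehf and Foxa1 go with overlapping groups; after median centring Dsg2, Ppl, Nectin1, Marveld2, Elf5, Ehf, Foxa1 and Cdcp1 lie below 0.

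The rising genes did not share one order among the overexpression libraries. Relative to the wild-type mean, Epcam stood at a log2 ratio of 2.84, 1.40 and 2.19 in overexpression libraries 2, 3 and 4. St14 followed with 2.55, 1.29 and 2.21, and Sfn, which encodes the epithelial protein stratifin and was chosen after its values were seen, with 2.45, 0.65 and 2.05. All 3 were highest in library 2 and lowest in library 3. Dsg2 stood at 2.11, 2.22 and 1.62 and Ppl at 1.33, 2.82 and 1.21, both highest in library 3. Of the 15 listed rising genes of the 8 lists, 4 were highest in library 2, 8 in library 3 and 3 in library 4, whereas 31.2%, 22.3% and 46.4% of all 1505 rising genes were. Krt18 and Elf3 were lowest in library 2. Without overexpression library 2 the voom log2 fold was 1.69 for Epcam and 1.96 for Dsg2, and without library 3 it was 2.42 and 1.90.

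The markers of other cell types that are listed are all listed as higher, as are 87.4% of all listed genes. The sums below cover listed markers only, which passed the authors' thresholds, so they cannot show how a cell type moved. Of 8 B cell and plasma cell markers, 7 are listed, all as higher, although Pax5 turned below 0 after median centring; voom called 6 of them, not Mzb1. Their summed level was 218 to 298 FPKM in wild type and 4016, 343 and 1369 FPKM in overexpression libraries 2, 3 and 4, the same order as Epcam. Of 9 T cell markers, 7 are listed as higher, with sums between 42.6 and 76.0 FPKM for wild type and between 175 and 220 FPKM for overexpression. For macrophages 2 of 9 markers are listed (sums of 1049 to 1651 and 5468 to 7583 FPKM), for dendritic cells 3 of 8 (1.32 to 2.19 and 5.17 to 7.46 FPKM) and for fibroblasts 3 of 8 (129 to 157 and 385 to 617 FPKM), all as higher, although the dendritic genes Flt3 and Xcr1 turned below 0 after median centring. None of the listed markers was at 0 in any library, and the level of the markers that are not listed, the Langerhans cell gene Cd207 included, was not analysed here. Epithelial tissues other than cervix gave 1 of 9 lung markers (Napsa, 16.9 ± 2.50 to 52.7 ± 23.0 FPKM), 1 of 10 glandular markers (Prlr, 0.0781 ± 0.0671 to 0.798 ± 0.282 FPKM, below 0 after median centring) and 0 of 9 skin markers. Of 9 markers for cervical and squamous epithelium, only Krt18 and Epcam are listed, in opposite directions. Both had been picked by name with their directions known, so the labelled cell type was not checked here. The part of other cells in the levels of Epcam and Dsg2 was not tested.

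**Figure D5:**
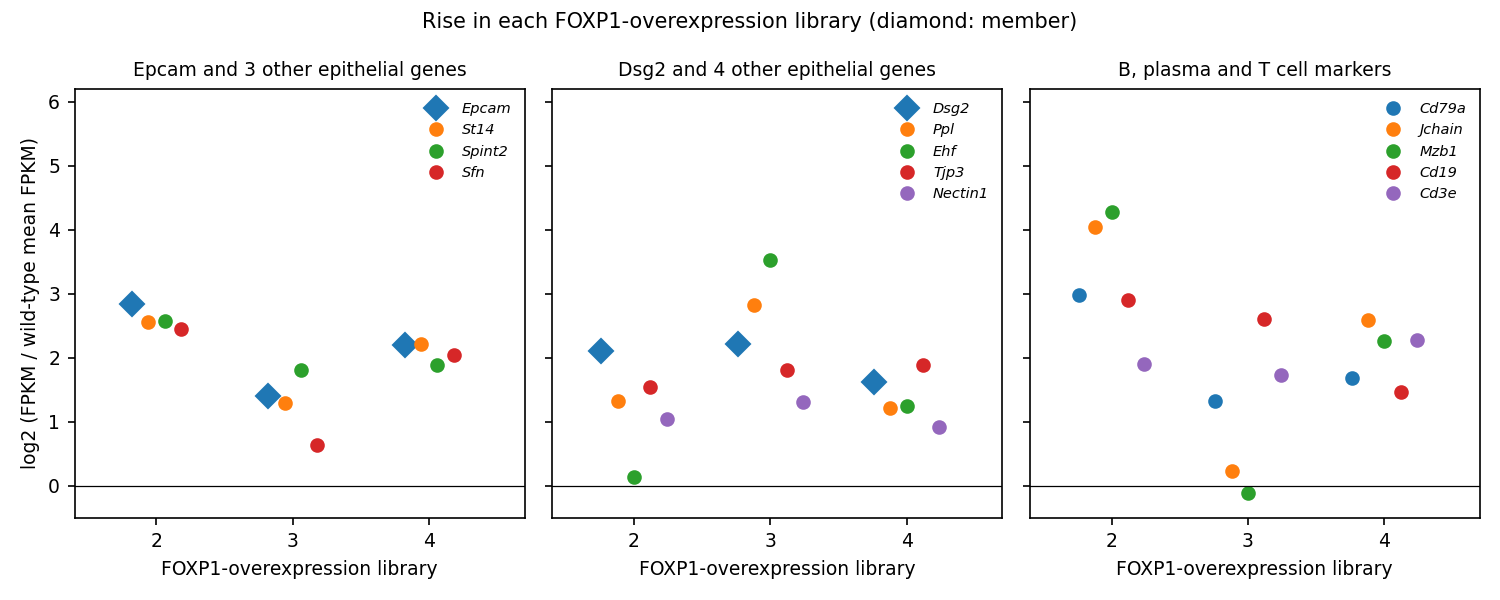
Log2 ratio of FPKM to the wild-type mean (vertical axis) in overexpression libraries 2, 3 and 4 (horizontal axis) for Epcam, Dsg2, other rising epithelial genes and lymphocyte markers; diamonds mark the 2 members and no line joins libraries, which have no order. Epcam lies at 2.84, 1.40 and 2.19 and Dsg2 at 2.11, 2.22 and 1.62, while the plasma cell gene Mzb1 lies at 4.27, -0.11 and 2.26.

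Profiles most like each gene were sought over the 6 libraries, by the root mean square difference of log2(FPKM + 1) after each gene's wild-type mean was subtracted, among 911 genes with a mean of at least 1 FPKM in each group. For Krt18 these were Padi3, Fhl2 and Gdpd3, at differences of 0.093, 0.103 and 0.121. Padi3, which encodes an enzyme that converts arginine in proteins to citrulline, read 33.8, 32.4 and 29.6 FPKM in wild type. It read 12.2, 14.5 and 13.3 FPKM in overexpression libraries 2, 3 and 4. For Elf3 they were Fam83d, Slc4a5 and Zfand2a, for Epcam the genes Btg2, Glipr1 and Cd28, and for Dsg2 the genes Tmem221, Rasgrp2 and Bicdl1. Dsg2 itself lay under 1 FPKM in every library, and the log2(FPKM + 1) scale compresses low values. The authors' log2 folds were 1.09, 1.13 and 1.03 for the genes near Dsg2, against 1.95 for Dsg2. Those near Elf3 had -1.01, -1.03 and -1.01, against -1.40 for Elf3. With a pseudocount of 0.1 the 3 genes of Krt18 were found again, as was Cd28 for Epcam, and none of those for Elf3 and Dsg2. The nearest profiles of Dsg2 were then Cd3d, which encodes a subunit of the T cell receptor complex, at a difference of 0.069, followed by Ptprcap and Bcl2l14. For Epcam they were the T cell costimulatory gene Icos, Cd28 and Glcci1, and for Elf3 Slc2a3, Nrarp and Efna1. Cd3d read 5.10, 9.78 and 7.46 FPKM in the wild-type libraries, whereas overexpression libraries 2, 3 and 4 gave 24.4, 28.5 and 17.6 FPKM. The T cell costimulatory gene Cd28 read 1.22, 1.68 and 1.48 FPKM in wild type and 8.86, 4.57 and 5.64 FPKM in overexpression libraries 2, 3 and 4.

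By the gene ontology terms in the deposited table, the 4 genes share some annotations within and some across the pairs. The term plasma membrane holds Krt18, Epcam and Dsg2. Elf3 and Epcam share positive regulation of transcription by RNA polymerase II, and Krt18 and Epcam share negative regulation of apoptotic process. Epcam and Dsg2 share the terms lateral plasma membrane, apical plasma membrane and cell junction, and Krt18 and Elf3 share cytoplasm, nucleus and cytosol. Of 7 listed genes annotated to the lateral plasma membrane, 5 were higher and 2 lower, and of 107 annotated to cell junctions, 90 were higher and 17 lower. Of 7 annotated to intermediate filaments, 3 were higher and 4 lower. These counts stand beside the 87.4% of all genes of the table that were higher.

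The 6 libraries held 16824351 to 20410060 fragments. Listed genes took between 5.47% and 6.42% of them for wild type, and between 11.70% and 12.85% for overexpression. Foxp1, the targeted gene, was not analysed here, and the group labels were thus taken as given.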

How the data were processed

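The authors deposited 1 table of changed genes. Per the submitters' processing notes, Trimmomatic, HISAT2 and DESeq were used, and the build named is hg19, although symbols and Entrez identifiers are mouse. For the read counter, no name was given in the sources used here. The expression values were taken as FPKM made by the authors. Per the file headers, the table also holds group means of normalised signal, a fold ratio, a log2 fold, and a p-value and q-value, all by the authors. Every listed gene has a q under 0.05 and a fold of at least 2, as checked. Read counts, library totals and size factors were rebuilt from the FPKM values and the deposited group means. Of 10332 values, 100.0% came out whole within 0.01.

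The authors' calls are the main result. Limma 3.58.1 in R 4.3.3 was run on log2(FPKM + 1) with a trend, and as voom on the rebuilt counts with the rebuilt size factors, both with Benjamini-Hochberg adjustment. Both fits were also run on simulated counts, with most genes unchanged and the same relative spread set for every gene. That setting differs from a table of selected genes, so no conclusion on the fits above is drawn from it. Named genes are the 4 members, every listed gene of the 8 gene lists (except 2 that count in the lists but are not reported here), and the 3 nearest profiles of each member; others were chosen after their values were seen, as stated beside them. Predicted genes were left out of the profiles. The members and lists were chosen with earlier results of these data known. Alternatives were another pseudocount, no trend, a filter of 1 FPKM, median centring, a replicate block and leaving out each library. Intervals of promoter windows are those of RefSeq.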

Additional observations from a re-analysis of the deposited data

How the results depend on the processing

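Krt18 kept its direction and its call under each of the 20 alternatives. On the log2(FPKM + 1) scale Elf3 was short of the fold threshold at -0.84 with the trend, -0.84 without it, -0.84 with the filter of 1 FPKM and -0.81 with the replicate block. Dsg2 was short of it at 0.57 with the trend, 0.57 without it and 0.58 with the block, and reversed to -0.24 after median centring, where Epcam was at 0.75. The filter of 1 FPKM removed Dsg2. The number of the 4 genes called was 2 with the trend, without the trend, with the filter, with the replicate block and after centring, and 4 with a pseudocount of 0.1 and in voom with either adjustment. When each library was left out in turn, log2 folds ran from -1.34 to -1.07 for Krt18, from -1.54 to -0.75 for Elf3, from 1.26 to 2.42 for Epcam and from 0.51 to 2.44 for Dsg2, and 2 to 4 genes were called. In voom alone the ranges were -1.54 to -1.26 for Elf3 and 1.61 to 2.44 for Dsg2, with 4 called each time. On the log2(FPKM + 1) scale, leaving out wild-type library 1, 2 or 3 or overexpression library 2, 3 or 4 gave -0.75, -0.81, -0.94, -0.78, -0.84 and -0.89 for Elf3 and 0.51, 0.63, 0.57, 0.54, 0.52 and 0.64 for Dsg2. The pseudocount itself lowers the fold of genes near 1 FPKM. Median centring lowered every log2 fold by 0.81, which alone took Dsg2 from 0.57 to -0.24 and Epcam from 1.55 to 0.75. The cause of the other changes was not tested. Replicate numbers 2 and 3 are shared by the groups, but deviations of same-numbered libraries correlated at only 0.021 and 0.076 over 1722 genes, so the numbers were not taken to pair the libraries. With that block limma called 412 of the listed genes against 699 without it. Wild-type library 1 and overexpression library 4 have no same-numbered library, so they add nothing to the blocked group comparison. Adjusted p-values in limma with the block were 0.047 for Krt18, 0.051 for Elf3, 0.048 for Epcam and 0.047 for Dsg2. Elf3 thus missed the threshold of 0.05 there as well as the fold threshold.

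Of the 4 listed epithelial transcription factors voom called 1, and 1 to 4 without each library. Leaving out each library, a setting added after the data had been seen, gave 4 to 7 of 7 B cell and plasma cell markers, 3 to 5 of 6 ETS genes, 3 to 5 of 5 junction genes, 1 to 2 of 2 desmosome genes, 2 to 4 of 4 surface genes, 1 to 2 of 2 macrophage markers and 0 to 1 for Cdh11. Of the 12 nearest profiles, 4 were shared with those found at a pseudocount of 0.1. Depth limits Dsg2 most, with 10 fragments in its lowest library.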
